A study of Mus musculus with 8 samples.

Results

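The cytosolic ribosomal protein genes were followed in mouse forebrain microvessels at postnatal day 5 (P5), postnatal day 10 (P10) and in adults. A gene was a member when a probe's accession mapped to a mouse symbol of the form Rpl or Rps with a number, to Rplp0, Rplp1 or Rplp2, or to Rpsa. Rps6k kinases and pseudogenes were left out. Of 32432 genes named on the array, 85 were members, measured by 173 probes. Of these, 84 passed the filter on dim probes and were tested: 49 of the large subunit, 32 of the small subunit and 3 of the stalk. The member left untested was Rpl10l, a retrogene copy of Rpl10 known from testis, whose 2 probes did not pass.

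Each of 8 two-colour arrays, 4 per replicate and slide, carried RNA of 2 ages. The vessels were obtained by homogenising the whole forebrain, sedimenting the homogenate and filtering it so that particles under 70 µm were recovered, and 100 ng of total RNA was labelled. P5 was compared with adult and with P10, always with P5 in the red dye Cy5, and P10 was compared with adult in both dye orientations. Each age has 2 replicates. The labels used here name no strain, sex, adult age or genetic change, and do not say whether the replicates came from separate animals or pools, so the p-values measure the spread between these samples only, which may be technical.

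Ribosomal proteins fold and coat the ribosomal RNA of the large and small subunits of the ribosome, and cells make them in matched amounts. Their mRNAs are among the most abundant in a growing cell. Many begin with an uninterrupted run of pyrimidines, the terminal oligopyrimidine motif, through which mTORC1 and the RNA-binding protein Larp1 set how strongly they are translated. In brain microvessels the main cells are endothelial cells, which line the capillary and divide while the vessel bed grows after birth, and the mural cells around them.

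Start-site sequences of 8 members are shown to set members that moved in different directions side by side: Rplp0, Rps2 and Rpsa were higher before adulthood, Rpl9 and Rps27 were lower at P5, and Rpl39 and its close copy Rpl39l had values of opposite sign at P5 over adult. Rpl15, called higher at P10, is added for its long pyrimidine run. The sequences are from the RefSeq promoter table for build GRCm38.p6 and run from 40 bases before to 20 bases after the annotated start, on the transcribed strand. Capitals mark the longest run made of C and T alone.
Rplp0 (chr5:115559427-115559486, plus strand): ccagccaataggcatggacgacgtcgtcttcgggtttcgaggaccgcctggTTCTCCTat
Rps2 (chr17:24720023-24720082, plus strand): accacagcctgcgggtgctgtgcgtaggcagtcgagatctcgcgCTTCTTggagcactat
Rpsa (chr9:120127726-120127785, plus strand): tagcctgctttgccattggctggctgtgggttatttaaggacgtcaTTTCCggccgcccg
Rpl15 (chr14:18270967-18271026, minus strand): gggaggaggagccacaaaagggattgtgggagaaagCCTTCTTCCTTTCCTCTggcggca
Rpl9 (chr5:65391412-65391471, minus strand): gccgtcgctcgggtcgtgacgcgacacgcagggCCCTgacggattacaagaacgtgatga
Rps27 (chr3:90213629-90213688, minus strand): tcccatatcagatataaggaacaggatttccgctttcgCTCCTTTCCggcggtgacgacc
Rpl39 (chrX:37085203-37085262, minus strand): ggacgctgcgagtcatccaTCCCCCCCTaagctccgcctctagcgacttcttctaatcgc
Rpl39l (chr16:10170188-10170247, plus strand): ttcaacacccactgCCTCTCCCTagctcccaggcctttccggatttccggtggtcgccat

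The promoter table held 65 of the 85 members. The window searched ran from 40 bases before to 40 bases after the start, and a gene with several starts counted if any of them matched. In it, 50 of these 65 (76.9%) had a run of at least 8 bases of C and T alone on the transcribed strand. Of all 27025 genes in the table, 32.6% had one. The longest run of a gene had a median of 10 bases in the members and 6 in all genes. Further motifs were counted in the same window. TCTTTCC on the transcribed strand, which can lie inside such a run, was present in 9 members (13.8%) and in 1.17% of all genes in the table. CCGGAAG on either strand, a core of Ets factor sites, was present in 14 members (21.5%) and in 5.20% of all. TATAAA on either strand was present in 4 members (6.15%) and in 4.92% of all. A match is a description of the letters and not a bound site. Of the members in the table, the run was present in 8 of 14 called higher at P5 than in adults, in 6 of 7 called lower and in 36 of 43 not called.

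The members were among the brightest features of the arrays. Their median brightness lay at percentile 98.5 of all genes tested, 78 of 84 lay in the brightest 10%, and no member spot was saturated. The 3 members in the dimmer part of the range were Rpl39l, Rpl3l and Rpl7l1, all of them paralogues of a standard gene. A total of 4 members lacked 1 array after outlier spots were left out (Rpl5, Rps14, Rps21 and Rps26), all of them in replicate 1. Between 65.2% and 73.3% of the probes in a channel were well above background. The marker genes of the vessel changed strongly with age. At an adjusted p below 0.05 (limma), 14 of 14 endothelial markers tested were called lower at P5 than in adults (median log2 ratio -1.70). So were 9 of 9 mural (-1.60), 7 of 10 oligodendrocyte (-1.67) and 5 of 9 mature neuron markers (-0.53). Called higher were 13 of 13 erythroid markers (4.80), 10 of 11 immature neuron markers (2.11), 13 of 14 cell division genes (2.57) and 1 oligodendrocyte marker. Of all genes tested, 30.1% were called higher and 23% lower. In such bulk samples fewer cells of a type and less RNA per cell cannot be told apart, and the part of these shifts in the values of the ribosomal protein genes was not tested.

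After loess normalization the family as a whole had a median log2 ratio of P5 over adult close to that of all genes, and single members went both ways. At an adjusted p below 0.05 (limma, Benjamini-Hochberg over 21939 genes), 17 of 84 were called higher and 9 lower for P5 over adult, or 31.0% in all, where 53.1% of all genes tested were called, 30.1% higher and 23% lower. The members' median log2 ratio of P5 over adult was 0.08, with 0.11 in replicate 1 and 0.10 in replicate 2, and that of all genes was 0.09. The values ran from -1.105 to 1.15 with an SD of 0.42 over the members, against 0.88 over all genes. Within the family, 63 members lay within 0.5 log2 units of 0 (75.0%, against 55.7% of all genes). With the deposited processed signals 10 were called higher and 11 lower, without the 2 arrays that held spots far below background 5 and 9, and with background correction fitted on every spot 10 and 2. The called shares of all genes in these settings were 53.2%, 37.8% and 24.5%. Only 3 members passed the test with a difference over 2-fold: Rplp0 and Rps3 upward and Rps14 downward, the last 2 of which rest on weak measurements described below. Of the 21939 genes tested, 2795 were called at least 2-fold higher and 1435 at least 2-fold lower.

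**Figure D1:**
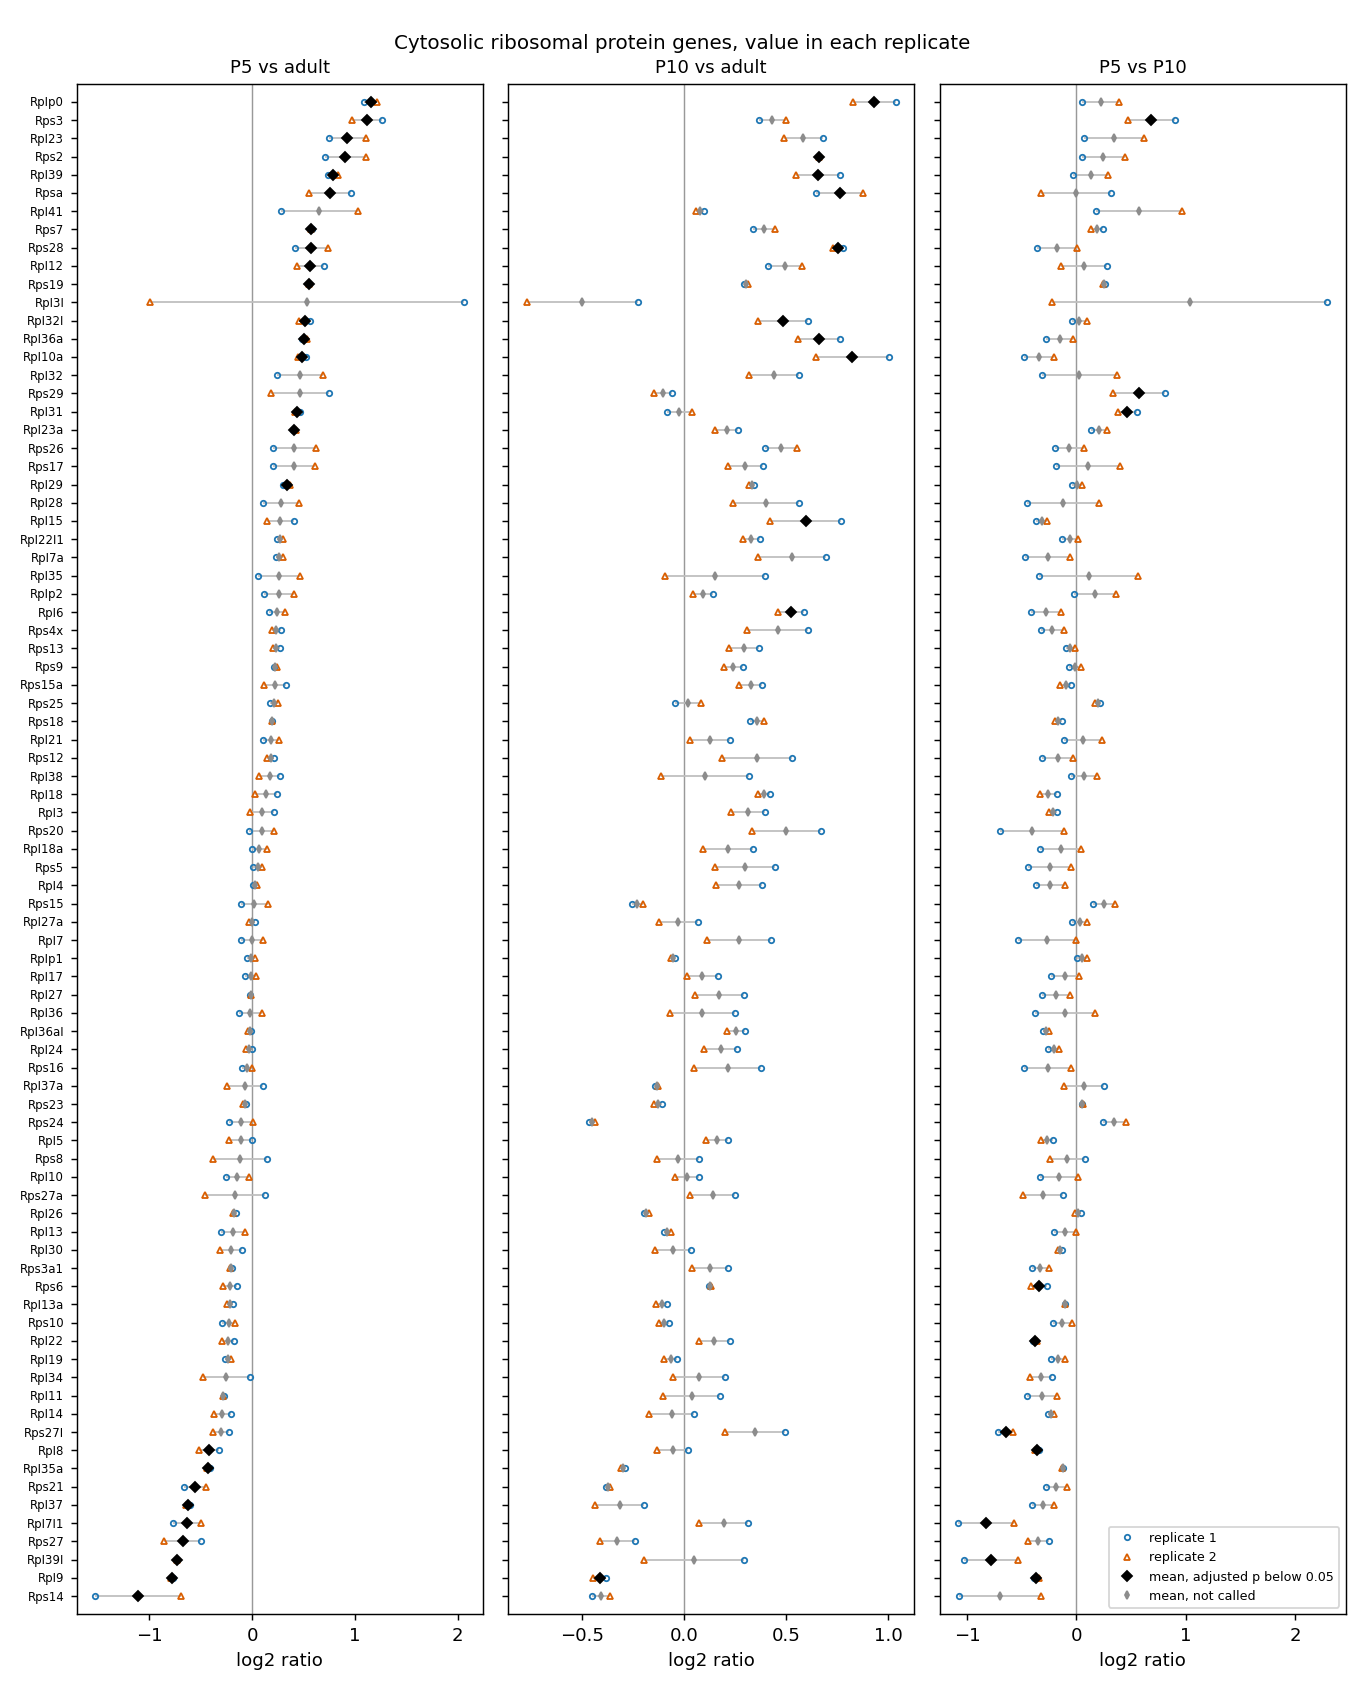
Log2 ratio of 83 of the 84 tested ribosomal protein genes in the 3 comparisons; open symbols are the 2 replicates, diamonds their mean, black where the limma adjusted p was below 0.05. Most members sit within 0.5 of 0, Rplp0 is at the upper end and Rps14 and Rpl9 at the lower end of P5 against adult, and the replicates of Rpl3l lie far apart.

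The placement of the whole family against other genes depended on the normalization. With each array only centred on its median, with no intensity-dependent loess correction, the members' median log2 ratio of P5 over adult was -0.55, with 1 called higher and 24 lower (29.8% of members, against 49.1% of all genes under that setting). Of the 17 members called higher with loess, 11 then fell below 0, and the 6 that stayed above were Rplp0, Rps3, Rpl23, Rps2, Rpl39 and Rpsa. The other 2116 genes of the brightest 10% moved alike under that setting: their median was -0.54, against 0.11 with loess. For P5 over P10 the members' median without loess was -0.95 (limma called 0 higher and 57 lower, and 0 and 67 at an unadjusted p below 0.05) and that of the other bright genes -0.78. The called share was then 67.9% of members, 64.4% of the other bright genes and 43.1% of all genes. For P10 over adult it was 0.35 (1 called higher and 0 lower, and 13 and 0 unadjusted), against 0.10 in the other bright genes, of which 4.91% were called, and 5.83% of all genes. Leaving out loess affected the order of the members far less than their common shift. Values with and without loess correlated at 0.95, 0.98 and 0.88 in P5 against adult, P10 against adult and P5 against P10 (84 genes). With no dye term, the correlations with the main values were 0.79, 0.98 and 0.74, so the order depended more on the dye term. The 2 dye orientations of P10 against adult, whose ratios are inverted, correlated at -0.39 and -0.60 over the members in replicates 1 and 2. Over all genes tested they correlated at -0.89 and -0.92. The points share all arrays, and no test was made. The median of P10 over adult was above 0 and that of P5 over P10 below 0 in all 13 settings with both replicates, while that of P5 over adult was above 0 in 10 of 13. Changes of single members are therefore given relative to all genes after loess, with the signs that turn without it.

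**Figure D2:**
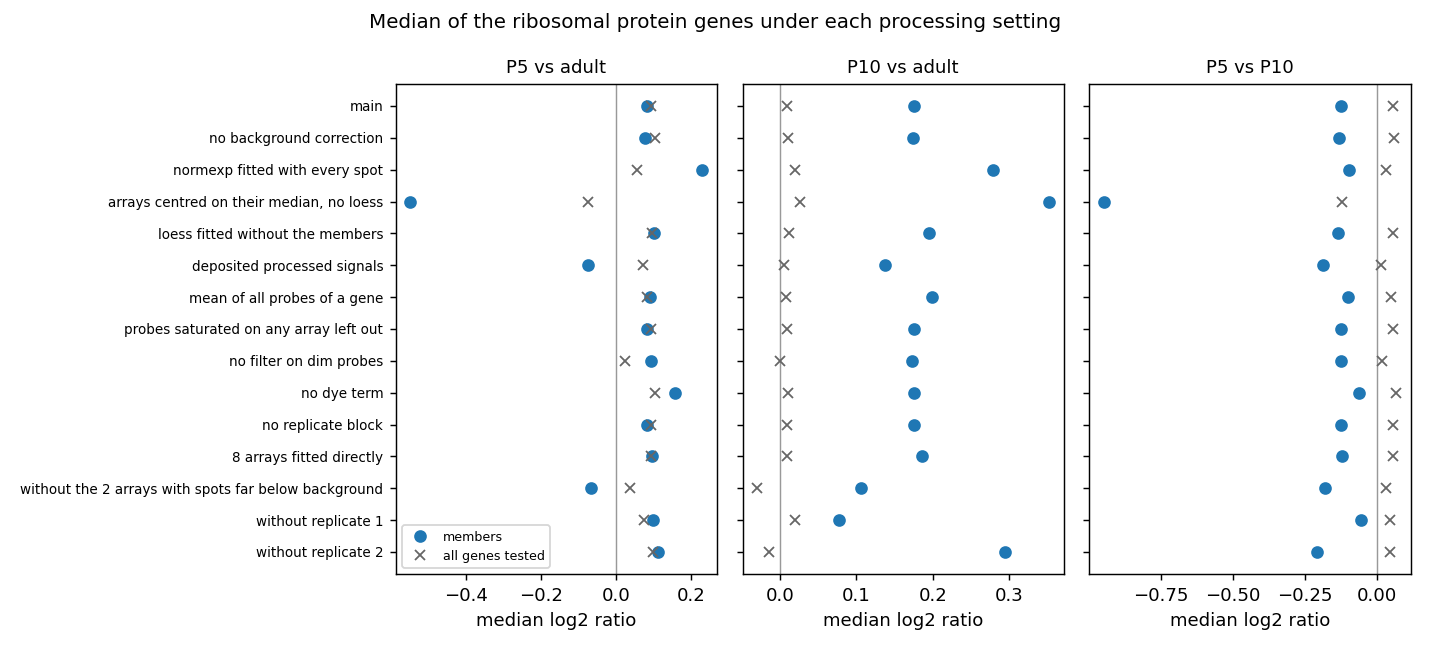
Median log2 ratio of the ribosomal protein genes (circles) and of all genes tested (crosses) under each processing setting, 1 panel per comparison. The circles of P10 against adult stay above 0 and those of P5 against P10 below 0 in every setting, and the setting without loess moves the members' median of P5 against adult from 0.08 to -0.55.

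The stalk proteins form the arm that recruits the translation factors. Of these, 1 of 3 passed the test for P5 over adult, where 53.1% of all genes did. The 1 that passed was Rplp0, the protein at the base of that arm. On the arrays of P5 over adult its log2 ratio was 1.28 in replicate 1 and 1.20 in replicate 2. P10 over adult gave 1.12 and 1.22, and with the dyes exchanged, as adult over P10, -0.88 and -0.71. Both young ages were thus above adult on every array that compared them. P5 over P10 gave 0.10 and 0.92. Combined over the 4 arrays of each slide, Rplp0 was 2.22-fold higher at P5 than in adults, a log2 ratio of 1.15 ± 0.12 (SE, n = 2 replicates; adjusted p = 0.0025), with 1.09 and 1.22 in the replicates. All 3 of its probes gave between 1.15 and 1.28. It passed the test in 11 of 12 alternatives, the exception being a value of 0.54 without loess (adjusted p = 0.190). Rplp1 and Rplp2, the acidic proteins that Rplp0 anchors, had log2 ratios of -0.01 and 0.26 and did not pass (adjusted p = 0.960 and 0.145).

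Of the 32 small subunit members, 7 were called higher and 3 lower at P5 relative to adult (31.25%, against 53.1% of all genes tested). Their median log2 ratio was 0.19. Rps2, which lies near the entrance of the mRNA channel, was 0.71 and 1.104 in the replicates, a log2 ratio of 0.91 ± 0.14 (SE; adjusted p = 0.0065), and its other probe gave 0.85. Rpsa, also known as the laminin receptor precursor, was 0.96 and 0.56 (0.76 ± 0.17, adjusted p = 0.0190). The replicates of both genes lay above 0. The dimmest of the 4 probes of Rpsa gave 0.10, and the remaining ones gave 0.98 and 0.9997. Rps7, with 0.58 in each replicate, and Rps19, the gene most often mutated in Diamond-Blackfan anaemia, with 0.56 and 0.55, had nearly equal replicates. Rps28 was called higher as well. Without loess Rps7 (-0.06), Rps19 (-0.10) and Rps28 (-0.04) lay below 0.

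Rps3, a neighbour of Rps2 at the mRNA entrance, had the second highest value of the family but an insecure one. Its replicates were 1.26 and 0.97 and its log2 ratio 1.12 ± 0.14 (SE; adjusted p = 0.0035). This probe was the dimmer of the 2 on the array. The brighter probe lacked spots in replicate 1 and gave -0.21 in replicate 2. With no dye term, where that probe entered, the value was -0.41, so the direction at Rps3 depends on which probe is read.

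The small subunit members lower at P5 were Rps14, Rps27 and Rps21. Rps27, a zinc finger protein of the small subunit, was -0.49 and -0.85 in the replicates, a log2 ratio of -0.67 ± 0.12 (SE; adjusted p = 0.0105), and its 4 probes all lay between -0.67 and -0.44. Rps21 was -0.66 and -0.45 (-0.56, adjusted p = 0.0119), with 1 array missing. It was the only member called in the same direction under every alternative that gave it a value, which were 10. Rps14 had the lowest value of the family, -1.105 ± 0.23 (SE; adjusted p = 0.0144), with -1.52 and -0.69 in the replicates. However, the arrays that set P5 directly against adult gave only -0.13 and -0.08. The rest of its value came from a dye term of 1.39 and 0.70 log2 units, of which the first rests on a slide with 1 array missing, and with no dye term the log2 ratio was 0.17. Of the 26 members called in this comparison, all 26 had direct P5 over adult ratios of the called sign on both slides. Those arrays also entered the calls and all carried P5 in Cy5, so this agreement is no separate check.

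**Figure D3:**
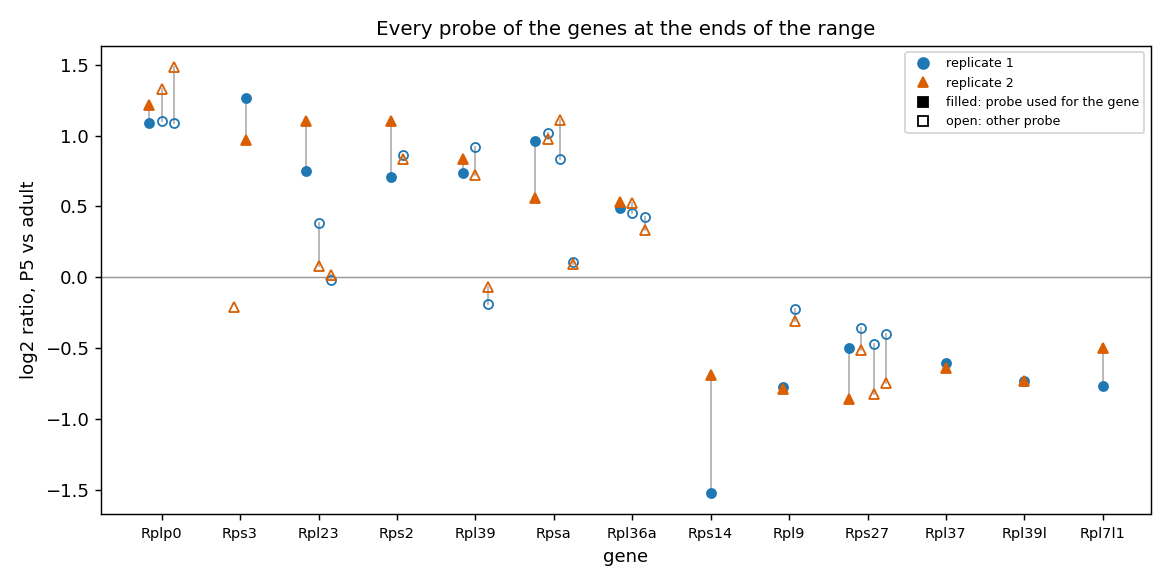
Log2 ratio of P5 over adult for every probe of 13 members at the ends of the range, per replicate (circles and triangles); filled symbols are the probe used for the gene. The probes of Rplp0 and Rps27 lie close together, whereas those of Rpl23, Rpl39 and Rps3 differ, and Rps14 has 1 probe with replicates at -1.52 and -0.69.

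Of the 49 large subunit members, 9 were called higher and 6 lower at P5 relative to adult (30.6%, against 53.1% of all genes tested). Their median log2 ratio was 0.00. The highest was Rpl23, known to bind the p53 regulator Mdm2 when it is free of the ribosome. It was 0.75 and 1.104 in the replicates (0.93 ± 0.16, SE; adjusted p = 0.0084), but its other probes gave 0.23 and -0.00, and the direction therefore rests on its brightest probe. Rpl39, a small protein lining the exit tunnel of the nascent chain, was 0.73 and 0.84 (0.79 ± 0.12, SE; adjusted p = 0.0063). A probe of nearly equal brightness gave 0.82, and the third, a dim probe, -0.13. The other large subunit members called higher were Rpl12, Rpl32l, Rpl36a, Rpl10a, Rpl31, Rpl23a and Rpl29, with log2 ratios from 0.34 to 0.56. Without loess these 7 lay below 0, from -0.29 to -0.07, with Rpl32l and Rpl36a at -0.13 each.

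Rpl9, whose protein lies near the base of the stalk, was the large subunit member with the lowest value at P5 and moved in steps with age. Its direct ratios of P5 over adult were -0.76 and -0.89, those of P10 over adult -0.36 and -0.50, and those of P5 over P10 -0.36 and -0.39. No array that carried 2 different ages put the younger age above the older. The log2 ratio of P5 over adult was -0.78 ± 0.09 (SE; adjusted p = 0.0035), a 1.72-fold lower level, and it was called in 11 of 12 alternatives with values from -1.42 to -0.52. Its second probe gave -0.27. Rpl37, which can also bind Mdm2, was -0.60 and -0.64 (-0.62, adjusted p = 0.0097). Its direct P5 over adult ratios were -0.13 and -0.64 and its dye term 0.46 and 0.22 log2 units. It was called in 10 of 12 alternatives, with values from -1.23 to -0.28 and adjusted p up to 0.172. Rpl35a and Rpl8 were -0.42 each and were called as well.

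At P10 the median of the family lay above that of adult, and few single members passed the test. Of 84 members, 11 were higher and 1 lower than in adults, or 14.3%, where 17.5% of all genes tested were called, 8.42% higher and 9.1% lower. The members' median log2 ratio was 0.18, against 0.01 for all genes, with 0.29 in replicate 1 and 0.09 in replicate 2. The small subunit median was 0.30 and that of the large subunit 0.15. With the deposited processed signals limma called 2 members higher and 0 lower (median 0.14, and 19 and 5 at an unadjusted p below 0.05). Without the 2 arrays that held spots far below background it called 1 and 0 (16 and 4 unadjusted). The called shares of all genes were 12.9% and 8.65%. Called lower at P10 than in adults were 7 of 10 oligodendrocyte (median -1.11), 5 of 9 mature neuron (-0.99), 6 of 14 endothelial (-0.46) and 3 of 9 mural markers (-0.37). Called higher were 14 of 14 cell division (3.14), 9 of 13 erythroid (1.96) and 7 of 11 immature neuron genes (0.80). The part of these shifts in the result was not tested. The adult samples serve both young ages, so the values of P5 and P10 against adult are not independent.

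The highest members at P10 were Rplp0, Rpl10a, Rpsa, Rps28 and Rpl36a. Rplp0 was 1.04 and 0.83 in the replicates, a log2 ratio of 0.93 ± 0.12 (SE; adjusted p = 0.0118). Rpl10a, a protein of the L1 stalk through which spent tRNA leaves, was 1.003 and 0.65 (0.82 ± 0.13, adjusted p = 0.0175), and Rpsa 0.65 and 0.88 (0.76 ± 0.17, adjusted p = 0.0446). The 5 highest members had both replicates above 0, but the probes of Rpsa differed in sign in this comparison. Rps28 and Rpl36a reached 0.75 and 0.66. Rps2, Rpl39, Rpl15, Rpl6 and Rpl32l were called with log2 ratios from 0.48 to 0.66. Of these, Rpl15 held the longest pyrimidine run of the 8 promoters printed above, and its second, dimmer probe gave -0.17. The 5 lowest members were Rpl3l (-0.50), Rps24 (-0.45), Rpl9 (-0.41), Rps14 (-0.41) and Rps21 (-0.37), and only Rpl9 passed (adjusted p = 0.0455).

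Between P5 and P10 few members were called. Of 84, 3 were higher and 7 lower at P5, or 11.9%, where 41.2% of all genes were called, 23% higher and 18.2% lower. The median log2 ratio of P5 over P10 was -0.13, with -0.21 and -0.05 in the replicates, against 0.06 for all genes. Of the markers, 14 of 14 endothelial (median -1.25), 9 of 9 mural (-1.40) and 9 of 14 cell division genes (-0.43) were called lower at P5. Called higher were 11 of 13 erythroid (2.54) and 10 of 11 immature neuron genes (1.08), and the part of these shifts was not tested. The members called higher at P5 were Rps3 (0.68), Rps29 (0.57) and Rpl31 (0.46). Without loess Rps29 and Rpl31 turned to -0.29 and -0.33, and with no dye term Rps3 turned to -0.46. Rpl3l (1.03) and Rpl41 (0.57), also among the 5 highest, did not pass. The members called lower at P5 were Rpl7l1 (-0.83), Rpl39l (-0.78), Rps27l (-0.65), Rpl22 (-0.38), Rpl9 (-0.37), Rpl8 (-0.36) and Rps6, the target of the S6 kinases (-0.34). Rps14 (-0.70) and Rps20 (-0.40), the remaining genes among the 5 lowest, did not pass. The second probe of Rpl22 gave 0.22.

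Counted by the age with the highest level, P10 was the most frequent age among the members when both replicates were used. It was highest in 41 of 84 members (48.8%), against 21.9% of all genes tested. In 28 members (33.3%) it was highest in both replicates, against 15.0% of all genes. P5 was highest in 24 members (28.6%, against 46.6% of all genes) and adult in 19 (22.6%, against 31.5%). The share of members highest at P10 ran from 44.0% to 86.9% over the 13 settings with both replicates, and that of the other genes from 21.6% to 28.1%. The 86.9% came without loess, where the other genes of the brightest 10% also had a low median of P5 over P10 (-0.78). The share highest at P10 among those bright genes was not counted. With replicate 2 alone it was 35.7% of members, equal to the share highest at P5 (35.7%), and 19.9% of other genes, and with replicate 1 alone 63.1% and 26.0%. No test was made of these shares, since the members of a slide share their arrays.

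**Figure D4:**
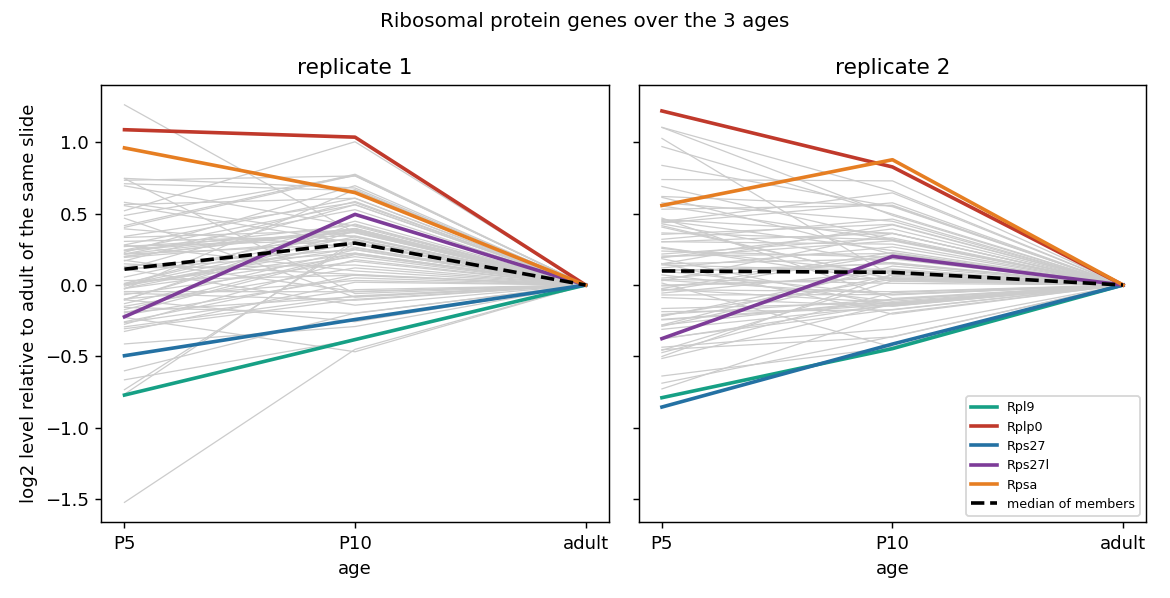
Log2 level of 83 ribosomal protein genes at P5, P10 and adult, relative to the adult of the same slide, for each replicate; Rpl3l is left out, the dashed line is the median of the members and coloured lines are 5 named members. Rplp0 and Rpsa lie above adult at both young ages and Rpl9 and Rps27 below, Rps27l peaks at P10, and the median at P10 is 0.29 in replicate 1 and 0.09 in replicate 2.

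Several members are second copies of a standard ribosomal protein gene, some of them used in particular tissues. Their values are set beside those of the partner. Rpl39l is a copy of Rpl39 best known from male germ cells. Rpl39l was -0.73 in both replicates for P5 over adult, while Rpl39 was 0.79. Rpl39l was dim. At P5 it was well above background in 3 of 4 channels, and it passed the filter through P10 and adult alone, where it was measured in all 6 channels each. Its values are therefore a description, and its calls as lower at P5, though counted above, support nothing. Rpl7l1, a protein of ribosome assembly related to Rpl7, was -0.76 and -0.50 (-0.63, adjusted p = 0.0205), while Rpl7 was 0.00. For P5 over P10, Rpl7l1 was -1.08 and -0.57 and was called in 11 of 12 alternatives. Rpl39l was -1.03 and -0.53.

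Rps27l, a copy of Rps27 induced by p53, had its highest level at P10. It was -0.22 and -0.38 for P5 over adult (adjusted p = 0.0802), 0.49 and 0.20 for P10 over adult, and -0.72 and -0.58 for P5 over P10, of which the last passed (-0.65 ± 0.11, SE; adjusted p = 0.0155) and did so in 11 of 12 alternatives. Rps27 was lowest at P5 and highest in adults, at -0.67 and -0.33 relative to adult, so Rps27l lay above Rps27 by 0.74 and 0.61 log2 units in P10 over adult. Rpl22l1, known to be held down by Rpl22 protein, was 0.27 for P5 over adult and Rpl22 -0.23. Rpl36al was -0.02 and Rpl36a 0.51, and neither Rpl22l1 nor Rpl36al passed. Rpl32l and Rpl32 were alike at 0.51 and 0.47. Rpl3l, the copy of Rpl3 used in heart and skeletal muscle, gave no usable value, as its replicates were 2.06 and -0.99. Rps4l, listed as a pseudogene in the reference table and so no member, was -0.88 for P5 over adult, against 0.24 for Rps4x. The differences within pairs were not tested. Probes of such near-identical genes may also bind each other's RNA or that of processed pseudogenes, which was not checked because probe sequences were not used here.

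The ubiquitin fusion Rps27a did not pass, and Fau and Rack1, which lie outside the symbol rule, each passed in at least 1 comparison. Rps27a, the member that yields ubiquitin and a small subunit protein, was 0.13 and -0.46 for P5 over adult and did not pass. Fau, made as a fusion to a ubiquitin-like protein, was -0.38 for P5 over adult (adjusted p = 0.0397). Rack1, a signalling scaffold on the small subunit, was 0.46 for P10 over adult (adjusted p = 0.0444) and -0.37 for P5 over P10 (adjusted p = 0.0436), the latter turning to 0.14 with no dye term.

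The genes that build ribosomes went both ways. Of 44 ribosome biogenesis genes tested, 13 were called higher and 5 lower for P5 over adult (median log2 ratio 0.24), 9 were higher and 2 lower at P10 than in adults (0.22), and 5 were higher and 11 lower at P5 than at P10 (-0.14). The called shares were 40.9%, 25.0% and 36.4%, against 53.1%, 17.5% and 41.2% of all genes. Ubtf, which drives transcription of ribosomal RNA genes, was 1.79 for P5 over adult and Nop56, a box C/D snoRNP protein, 1.43, while Pes1 and Sbds, factors of large subunit maturation, were -1.34 and -1.24. Ncl and Fbl, the nucleolar proteins nucleolin and fibrillarin, were 0.84 and 0.71 for P10 over adult. Of 24 genes of growth signalling, 8 were called higher and 10 lower for P5 over adult (75.0% called, median -0.23). Myc, an activator of ribosome genes, was 1.75 for P5 over adult and 2.12 for P10 over adult, and Ddit4, an inhibitor of mTORC1, was -1.39 for P5 over adult.

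Translation factors were also mixed. Of 40 initiation factors, 7 were called higher and 11 lower for P5 over adult (median log2 ratio -0.08), 5 and 2 at P10 against adult (0.19), and 3 and 14 at P5 against P10 (-0.31). The called shares, 45.0%, 17.5% and 42.5%, stood beside 53.1%, 17.5% and 41.2% of all genes. Pabpc1, the poly(A)-binding protein, was 2.15 for P5 over adult, Eif4g3 0.89 and Eif1 -0.99. Of 11 elongation and termination factors, 3 were called higher and 1 lower for P5 over adult (36.4%), with Gspt1 at 0.75, Eef1b2 at 0.51, Eef2 at 0.32 and Etf1 at -0.68. Of 21 cytosolic tRNA synthetases, 5 were called higher and 5 lower (47.6%), from Cars at 1.23 to Wars at -0.80. These lists were chosen with earlier results of the same data known, and their counts are descriptions.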

How the data were processed

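RNA of 2 ages was measured on each of 8 Agilent two-colour arrays (forebrain microvessels; P5, P10 and adult; 2 replicates). The deposited files hold 1 array each: per the file headers, signals and backgrounds of the spots are linear intensity values. The deposited log ratio, on the log10 scale, has Cy5 as numerator and was not used. The file headers give Feature Extraction 10.5.1.1, and the submitters' processing notes name 12.6. Genome build and aligner do not apply to arrays.

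In R 4.3.3 with limma 3.58.1, median signals were background-corrected (normexp, offset 50) and loess-normalized within arrays (span 0.3), giving control and outlier spots no weight. For spots over 100 below their background, the median background of the array was substituted in that correction, and they were then left out. A probe was kept if, for at least 1 age, all channels were well above background. A gene was its brightest probe fitted. Of 39429 probes, 27427 matched a symbol in the RefSeq table for GRCm38.p6, used for names only. Each slide's 4 log2 ratios were reduced by least squares to 2 age differences and a dye term. Ages were compared with limma, with the replicate as a block (2 residual and 2.91 prior degrees of freedom) and Benjamini-Hochberg adjustment over 21939 genes, and a call is an adjusted p below 0.05. The block pairs samples hybridised on 1 slide. The scripts were tested on simulated data. Arrays give no counts, and their number limits the precision.

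Members and gene lists were chosen with earlier results of these data known. Named are the 5 highest and 5 lowest members per comparison, paralogues with their partners, stalk proteins, Rpsa and other ribosomal proteins outside the rule, and up to 4 called genes of each other list. Other members are named where they complete a count or were called, or, like Rps7 and Rps19, after their values were seen. The alternatives were no background correction, normexp on every spot, no loess, loess without the members, the deposited processed signals, the mean of probes, saturated probes left out, no filter, no dye term, no replicate block, 8 arrays fitted directly, 2 arrays left out, and each replicate left out. Several of them leave the log2 ratios of the members as they were, so counts of alternatives are not counts of independent checks. The values of 2 further genes are not reported here.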

Additional observations from a re-analysis of the deposited data

Results flagged for a closer look

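A total of 5 members had P5 and P10 on opposite sides of adult in both replicates, with a difference between P5 and P10 that passed the test (limma, Benjamini-Hochberg over all genes). The log2 ratio of P5 over P10 was -0.83 for Rpl7l1, -0.65 for Rps27l, -0.38 for Rpl22 and -0.34 for Rps6, with P5 below and P10 above adult in each. For Rps29, a zinc-binding protein of the small subunit, it was 0.57, with P5 above adult (0.75 and 0.18 in the replicates) and P10 below (-0.06 and -0.15). All 3 probes of Rps29 had a positive ratio of P5 over P10, from 0.29 to 0.57. It was called in only 4 of 12 alternatives, however, and turned to -0.29 without loess. The probes of Rpl22 differed in sign for P5 over P10. Against adult, the only call among these 5 members was that of Rpl7l1 at P5, so the sides of adult are a description. How many of all genes share this pattern was not counted.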

How the results depend on the processing

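The 3 comparisons were recomputed under 12 alternatives and with each replicate alone. No replicate block raised the calls (pairing by slide ignored): 27 members higher and 19 lower for P5 over adult, 30 and 5 for P10 over adult, and 9 and 21 for P5 over P10. The called shares of all genes were then 66.9%, 31.7% and 57.9%. Fitting 8 arrays directly gave 37 higher and 6 lower for P10 over adult and 5 higher for P5 over P10. The median log2 ratio of P5 over adult was 0.10. This fit called 45.9% of all genes for P10 over adult and 49.2% for P5 over P10. It takes the arrays of a slide, the dye exchange of the same RNA pair included, as separate observations. Its added calls are therefore no added support. With no dye term, 17 and 2 were called for P10 over adult and 13 lower for P5 over P10, and the P5 over adult median was 0.16. All-gene shares were 18.7% for P10 over adult and 45.2% for P5 over P10. Without loess the P5 over adult median reversed to -0.55 (1 higher, 24 lower), P10 over adult gave 0.35 (1 and 0) and P5 over P10 -0.95 (0 and 57). The deposited processed signals gave -0.076 and 10 higher for P5 over adult, 2 and 0 for P10 over adult, and 1 and 3 for P5 over P10. Of all genes 53.2%, 12.9% and 40.5% were called there. Without the 2 arrays with spots far below background the P5 over adult median was -0.066 with 5 higher, P10 over adult gave 1 and 0, and P5 over P10 gave 1 higher. This setting called 37.8%, 8.65% and 25.8% of all genes. Normexp on every spot gave 0.23 with 10 higher and 2 lower for P5 over adult, and 0 and 0 in the other comparisons. It called 24.5% of all genes for P5 over adult, 1.17% for P10 over adult and 0% for P5 over P10, so calls were lost throughout. In this last setting limma had 26 higher and 2 lower at an unadjusted p below 0.05 for P10 over adult and 5 and 5 for P5 over P10. Without loess the unadjusted counts were 13 higher and 0 lower for P10 over adult and 0 and 67 for P5 over P10. The 1 member lower at P10 than in adults, Rpl9, was also lost (0 lower) with no background correction, with loess fitted without the members and with the mean of probes, where 4 to 6 were lower at an unadjusted p below 0.05. The P5 over adult median was 0.10 with loess fitted without the members and 0.094 with no filter on dim probes. With 1 replicate there was no test, and the medians ran from 0.099 to 0.111 for P5 over adult, from 0.078 to 0.294 for P10 over adult and from -0.210 to -0.054 for P5 over P10. Signs turned at Rpl32l (-0.13) and Rpl36a (-0.13) for P5 over adult and at Rps29 (-0.29) and Rpl31 (-0.33) for P5 over P10 without loess, and with no dye term at Rps3 (-0.41 for P5 over adult, -0.46 for P5 over P10), Rps14 (0.17) and Rack1 (0.14). With 1 replicate left out, Rps3 ran from -0.21 to 1.26 for P5 over adult and from -0.10 to 0.90 for P5 over P10. The causes were not tested beyond what each setting changes. Signal over background limits Rpl39l and Rpl10l.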
